A study of Mus musculus with 6 samples.

Results

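Flanking SOX13 peaks are defined here as SOX13 peaks on chromosomes 1 to 19 that overlap no histone peak but have a peak of trimethylated histone H3 lysine 4 (H3K4me3) of the same cells within 5 kb. The gap was counted in bp between the nearest edges of the 2 peaks. The members were thus chosen by the peak positions in all 5 lists, so their number and gaps are descriptions. There were 1265 of them among the 13494 autosomal SOX13 peaks, which is 9.37%, and among 74959 peaks of all kinds in the series. Of the other autosomal SOX13 peaks, 2334 lay on a histone peak and 9895 overlapped none and were more than 5 kb from H3K4me3. The latter are called distant peaks.

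SOX13 is a SoxD transcription factor that binds DNA through an HMG box and partners with the HMG-box factor TCF1, and it is known for its part in the programming of γδ T cells in the thymus. H3K4me3 is placed on nucleosomes around the start sites of active and poised genes, where it is read by the transcription machinery. Sequence next to such a start, outside the mark itself, can hold promoter-proximal regulatory sites. H3K27me3, the mark left by Polycomb repressive complex 2, covers silenced genes and can occur together with H3K4me3 at poised promoters.

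Chromatin was immunoprecipitated from γδ thymocytes of C57BL/6 mice, sorted as CD24+ and split by a fluorescent Sox13 reporter into a CFPhi (Sox13hi) and a CFPlo/- (Sox13lo) population. Every group carried the same genotype, TCRbeta KO with Sox13 ECFP KI/+, so the mice had a T cell receptor β knockout and 1 Sox13 allele with the reporter knocked in. The sources used here give neither ages nor the number of mice. SOX13 was mapped in Sox13hi cells, and H3K4me3 and H3K27me3 in both populations. Each group is a single library without replicates. The labels also list an input library, which was not analysed here.

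On the autosomes there were 19924 H3K4me3 peaks in Sox13hi and 17954 in Sox13lo, and 14483 and 7268 H3K27me3 peaks. No read numbers were analysed, and the depth of the libraries is unknown. Depth, threshold and cell population cannot be told apart where the lists differ in length. The sorted cell type was not checked against marker genes, because peaks were not assigned to genes here. For the same reason the sites below are given by position in mm9, and whether they are exonic, intronic or intergenic was not analysed. Intervals in parentheses are 95% exact (Clopper-Pearson) intervals for shares and exact Poisson intervals for ratios. They cover counting error only and treat peaks as independent.

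The first question was how the gaps were distributed. Flanking SOX13 peaks were spread almost evenly over the 5 kb. The median gap was 2500 bp, with an interquartile range of 1300 to 3800 bp. From the H3K4me3 edge outward, the successive 1 kb steps held 241, 243, 250, 259 and 272 of them, the last step including 13 peaks at exactly 5000 bp. Outside the edge there was no pile-up: 14 peaks touched the H3K4me3 peak without overlap, and 59 lay within 200 bp of it. SOX13 peaks that overlap the mark by even 1 bp are left out by the rule, so a pile-up across the edge could not be seen. When overlap meant at least 50% of the shorter peak, there were 1338 members. Of these, 22.9% (20.7 to 25.3%) lay within 1 kb, against 19.1% (16.9 to 21.3%) under the main rule. The H3K4me3 peak was on the lower-coordinate side of 638 members and on the higher-coordinate side of 626, and 1 member was equally far from both. The direction of transcription at these sites was not analysed.

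For comparison with this profile, every 250 bp window on a 50 bp grid was classified in the same way. The windows covered each chromosome from the first to the last peak of any list. Sequence to which reads cannot be mapped was not removed from them, and its effect on the ratios below was not tested. The windows of a chromosome were weighted by its SOX13 peaks, so that they sum to the number of peaks in the list. Of this sum, 13313 fell to windows on no histone peak, whereas 11160 SOX13 peaks were on none. A ratio of 1 below is therefore not the level of an even spread of these peaks. As a share of those on no histone peak, members were 11.3% of SOX13 peaks and 7.28% of windows. SOX13 peaks on no histone peak numbered 1252 at gaps below 5 kb, against 960.9 expected from the windows, a ratio of 1.30 (1.23 to 1.38). The ratio was 1.31 (1.24 to 1.40) at gaps from 5 to 10 kb and 1.30 (1.24 to 1.36) from 10 to 20 kb. It was 1.09 (1.05 to 1.13) from 20 to 50 kb. The ratio to the windows was thus of the same size inside and well outside the 5 kb that define the members. Within the 5 kb it was 1.22 (1.07 to 1.38) below 1 kb and 1.43 (1.26 to 1.62) from 4 kb to just under 5 kb, and these intervals overlap.

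**Figure D1:**
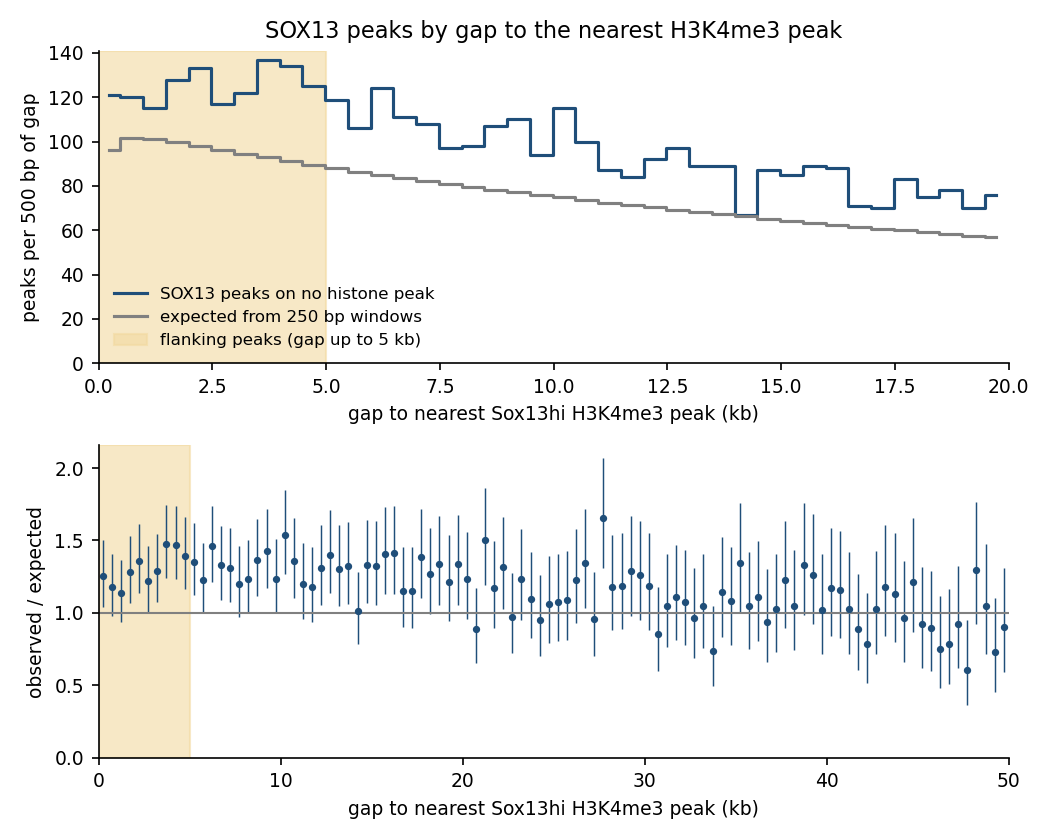
SOX13 peaks on no histone peak by gap to the nearest Sox13hi H3K4me3 peak, in 500 bp steps. The upper plot gives counts (blue) and the count expected from 250 bp windows (grey) out to 20 kb, and the lower plot their ratio out to 50 kb with exact Poisson 95% intervals. The shaded 5 kb hold the flanking peaks. The counts there, which leave out SOX13 peaks overlapping the mark, show no maximum at the H3K4me3 edge. The ratio is about as high out to 20 kb.

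Peaks on either side of the 5 kb limit are given for comparison, with no test. The 138 members with a gap of 4500 bp or more had a median score of 7.5 (interquartile range 6.5 to 9.44), 12 were in the highest score decile (8.70%), and 92 of them had a neighbour that was also in Sox13lo (66.7%). The 117 peaks just outside, at 5050 to 5500 bp, had a median score of 7.75 (6.5 to 9.0), 5 were in the highest decile (4.27%), and for 79 of them the nearest H3K4me3 peak was also in Sox13lo (67.5%).

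The count of members was then set against shifted SOX13 lists. In each of 1000 shifts all SOX13 peaks of a chromosome moved together by 1 random distance, and the histone lists stayed in place. With shifts of any length along the chromosome, 966.3 ± 41.3 flanking peaks were found (SD over shifts, range 839 to 1108), so the deposited list held 1.31 times as many (1.24 to 1.38). With shifts of 50 kb to 1 Mb, which keep the peaks in their own region of the chromosome, the mean was 1396 ± 38.0 (range 1283 to 1506) and the ratio 0.906 (0.857 to 0.957). The direction of the comparison therefore depended on the shift. All the shifted counts lay below 1265 in the former and all above it in the latter.

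Peaks that sit on histone marks enter this comparison. These 2334 peaks cannot be flanking in the deposited list, but most leave the marks when shifted, since 190.5 and 284.7 peaks lay on a histone peak in the mean shift of the 2 kinds. As a share of the peaks on no histone mark, members were 11.3% in the deposited list, 7.26% ± 0.312 in shifts of any length and 10.6% ± 0.289 in shifts of 50 kb to 1 Mb. When the count was limited to the 11160 SOX13 peaks on no histone peak, shifts of any length gave 798.7 ± 34.8 flanking peaks and shifts of 50 kb to 1 Mb gave 1124 ± 32.6. The ratios were then 1.58 (1.498 to 1.67) and 1.13 (1.06 to 1.19). Leaving out peaks that the rule already excludes lowers the shifted counts by construction and cannot change the 1265, so these higher ratios are no separate support. By comparison, SOX13 peaks on a histone peak were 12.2 and 8.20 times as many as in the shifts of the 2 kinds. The count of flanking peaks thus lay closer to that of the shifted lists than the count of peaks on the marks did.

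**Figure D2:**
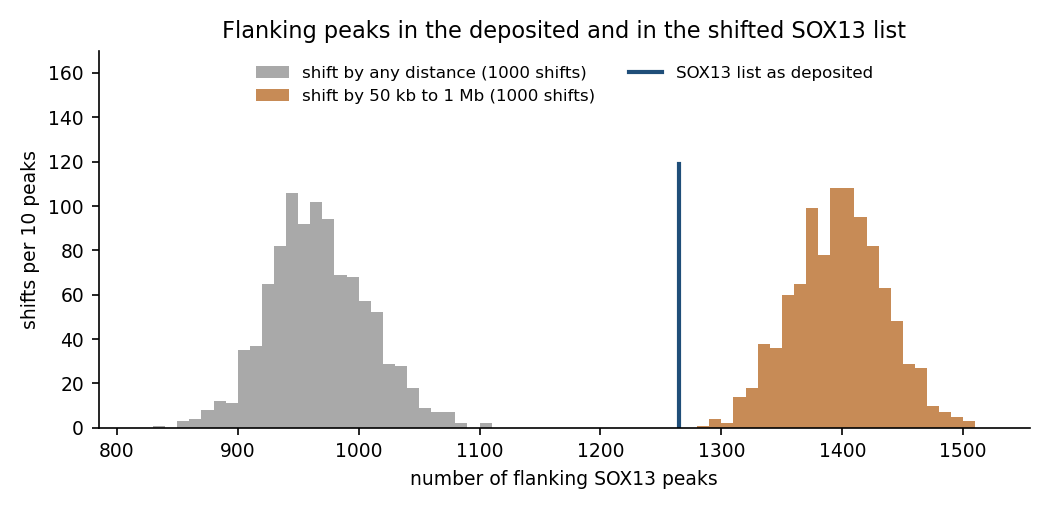
Number of flanking SOX13 peaks in 1000 shifts of the whole SOX13 list by any distance (grey) and 1000 shifts by 50 kb to 1 Mb (brown), counted in steps of 10 peaks. The vertical line marks the 1265 flanking peaks of the deposited list, which lies above all shifts of the first kind and below all of the second.

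The share of SOX13 peaks that flank H3K4me3 varied between chromosomes. It was lowest on chromosome 12, where 33 of 599 SOX13 peaks were members (5.51%), and highest on chromosome 7, with 105 of 808 (13.0%). Chromosome 11, the autosome densest in H3K4me3, had 12.2% of its 854 SOX13 peaks as members, which was 1.13 times the 10.8% of its windows that met the rule. On chromosome 7 the members were 1.68 times as frequent as such windows, the highest ratio of the 19 autosomes. On chromosome 9, with 55 members, they were 0.9503 times as frequent, the lowest. No intervals were computed for single chromosomes, so how much of this spread is counting error was not tested.

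The score, the authors' own value for each peak and of unstated definition, was not used to choose the members. It was compared only within the SOX13 list, except for the rank correlation with the score of the neighbour given below. Flanking peaks were middle-ranked: their median score was 7.75 (interquartile range 6.5 to 9.5), against 7.25 (6.0 to 9.0) for distant peaks and 10.5 (7.75 to 15.5) for peaks on a histone peak. Their median rank was 6174 of 13494. They were sparse at both ends of the list. The highest decile held 91 of them, or 7.19% (5.83 to 8.76%), where 10% of all autosomal SOX13 peaks belong to it by construction. In the lowest decile there were 76, or 6.01% (4.76 to 7.46%).

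As a group, distant peaks ranked lower than the members. The distant peaks nearest to H3K4me3 had the same median score as the members, 7.75. This held at gaps of 5050 to 9950 bp (1061 peaks) and of 10000 to 14950 bp (907 peaks). The median was 7.5 at 15000 to 19950 bp and at 20000 to 29950 bp, and 7.25 at 30000 to 49950 bp. The difference in score was therefore not tied to the 5 kb limit. The upper 5 deciles held 51.7% of the members and 43.4% of distant peaks, a difference of 8.27 points (5.31 to 11.2). Of the distant peaks 12.2% (11.5 to 12.8%) were in the lowest decile, so the members' share was lower by 6.16 percentage points (difference -6.16, interval of Newcombe type -7.57 to -4.57). In the highest decile the members exceeded distant peaks by 1.72 points (0.276 to 3.34), and members minus peaks on a histone peak came to -23.5 points (-25.9 to -21.1). The first of these is small, and its interval included 0 in 4 of the alternative settings. It was 1.06 points (-0.0236 to 2.24) with a distance of 10 kb and 1.12 (-0.381 to 2.85) with the neighbour taken from the Sox13lo H3K4me3 list. Without SOX13 peaks in the first 200 kb of each chromosome's covered stretch it was 1.37 points (-0.0360 to 2.97, which includes 0), and with every list cut to its top 50% by score it was -1.11 points (-3.66 to 2.12).

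Seen by decile, the share of SOX13 peaks that were flanking was 5.63% in the lowest, 12.2% in the sixth and 6.74% in the highest decile. Over the same deciles the share on a histone peak was 5.19%, 12.7% and 53.1%. Among SOX13 peaks on no histone peak, the flanking share was 5.94% (4.71 to 7.38%) in the lowest decile and 14.4% (11.7 to 17.4%) in the highest. This second share leaves out peaks that the rule excludes in any case. The rank correlation between gap and score among the 1265 members was -0.0252 (Spearman's rho, across peaks of 1 library, as a description).

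**Figure D3:**
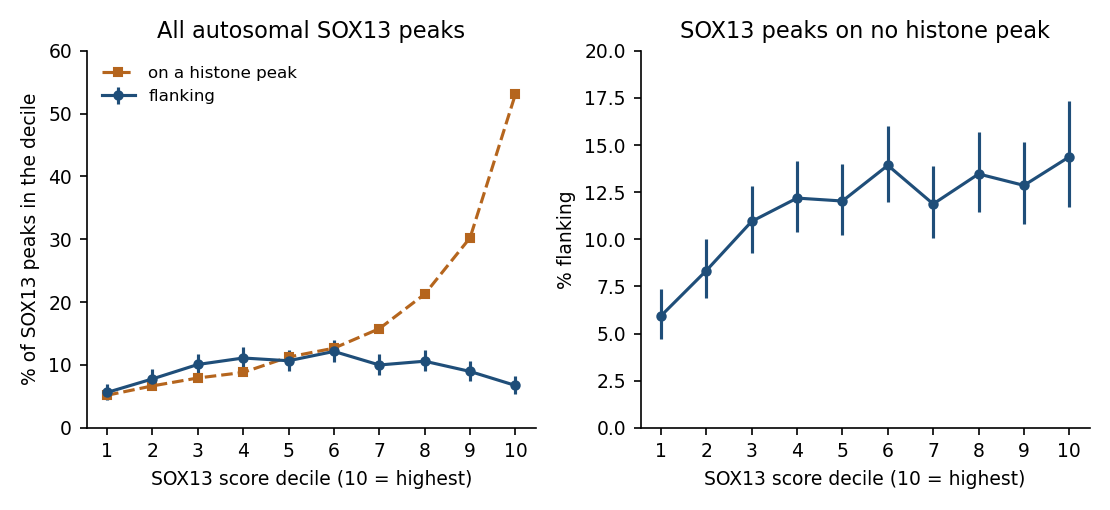
Left, percentage of the autosomal SOX13 peaks in each score decile that were flanking (blue circles) or on a histone peak (brown squares). Right, flanking peaks as a percentage of the SOX13 peaks on no histone peak. Bars are exact binomial 95% intervals. The flanking share is 5.63% in the lowest and 6.74% in the highest decile on the left, and 5.94% and 14.4% on the right.

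The 5 highest-scoring flanking peaks show how varied the sites are. The first, at chr17:3019551-3020499, had a score of 62.5, rank 45 in the SOX13 list, and lay 1950 bp from a H3K4me3 peak of only 100 bp. The second, at chr16:91534701-91535099 (score 56.0), was 650 bp from a 500 bp H3K4me3 peak that itself held another SOX13 peak. Neither of these 2 neighbours was in the Sox13lo list. The third, at chr16:35981601-35981899 (49.75), lay 1150 bp from a 1350 bp H3K4me3 peak in the highest H3K4me3 decile, and the fifth, at chr9:99342201-99342849 (45.0), 4500 bp from a peak of 1150 bp. Both neighbours were also in Sox13lo. The fourth, at chr11:3081801-3081949 (47.75), was 1150 bp from a 200 bp H3K4me3 peak that held SOX13 and was found in Sox13lo.

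Some high scores lay next to the first bases covered by peaks on a chromosome, as the sites near 3 Mb on chromosomes 17 and 11 show. In the first 200 kb of the covered stretch there were 12 members, on 4 chromosomes, with a median score of 26.25. Of these, 9 were in the highest decile, and 5 were among the 12 highest-scoring members. Enrichment at these places without an antibody was not tested. Leaving them out changed the ratio to shifts of any length from 1.31 to 1.30.

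The next question was whether the neighbouring H3K4me3 peak was also found in Sox13lo cells. The nearest H3K4me3 peak overlapped a Sox13lo H3K4me3 peak for 797 members, or 63.0% (60.3 to 65.7%). The background was 69.4% of all autosomal Sox13hi H3K4me3 peaks (68.8 to 70.1%), and 69.0% for windows meeting the same rule. The members' share was 6.44 percentage points below that of all H3K4me3 peaks (difference -6.44, -9.25 to -3.70). With both H3K4me3 lists at equal length the shares were 68.9% and 76.5%, a difference of -7.53 points (-10.3 to -4.81). The rule used the Sox13lo positions to leave out SOX13 peaks, which the windows share and the list of all H3K4me3 peaks does not. Peaks of a single library per population are the units here, so the shares are given as a description.

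The matched share varied with the H3K4me3 score, among neighbours as among all peaks. The neighbours scored somewhat lower and were narrower than H3K4me3 peaks in general, with a median score of 31.0 against 36.0 and a median width of 750 bp against 800 bp. Given their deciles by H3K4me3 score, 67.0% of the neighbours would be matched, which lies between the observed 63.0% and the 69.4% of all peaks. The cause of the remaining difference was not tested. Within deciles the gap was widest in the third, where 15.7% (10.1 to 22.8%) of 140 neighbours were matched, against 30.3% of all H3K4me3 peaks and 27.9% for windows. In the second decile the shares were 8.28% (4.35 to 14.0%) and 15.0%, with 13.2% for windows. In the lowest they were 6.25% (2.74 to 11.9%) and 5.52%, with 4.40% for windows. The neighbours' interval included the window value in the second decile but not in the third. From the seventh decile up, 99.0 to 100% of the neighbours were matched, as were at least 99.4% of all peaks. The interval of the difference from all peaks lay below 0 in the second decile and the third decile and included 0 in the other deciles.

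**Figure D4:**
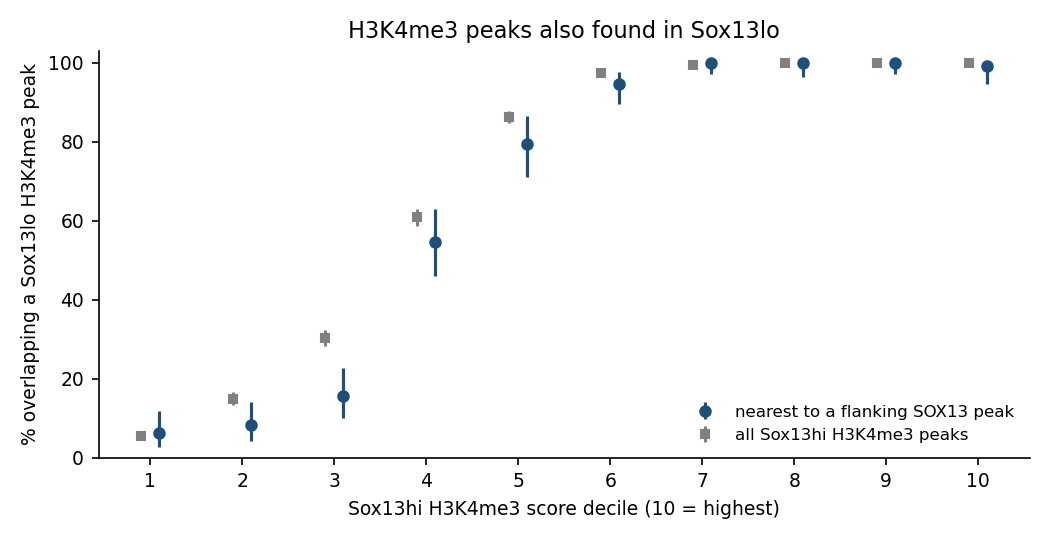
Percentage of Sox13hi H3K4me3 peaks that overlap a Sox13lo H3K4me3 peak, by decile of H3K4me3 score, for the nearest neighbours of flanking SOX13 peaks (blue circles, once per SOX13 peak) and for all autosomal peaks (grey squares). Bars are exact binomial 95% intervals. In the third decile the neighbours are at 15.7% and all peaks at 30.3%, and from the seventh up both are close to 100%.

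The members closest to H3K4me3 had the lowest share. Below 1 kb, 55.2% (48.7 to 61.6%) of 241 neighbours were also in Sox13lo, against 68.2% for windows at that gap. In the 4 steps farther out the shares were 66.3, 64.4, 64.9 and 64.0%, against 69.1 to 69.4% for windows, and each of these intervals included the window value. The H3K4me3 peaks in that step were also the narrowest and lowest-scoring, with a median width of 600 bp and a median score of 21.5, against 700 to 800 bp and 31.25 to 38.6 farther out. In the same step 10.8% (7.17 to 15.4%) of the SOX13 peaks were in the highest score decile, and 4.63 to 8.23% in the others. These are intervals per step. The trend over steps has no replicate.

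**Figure D5:**
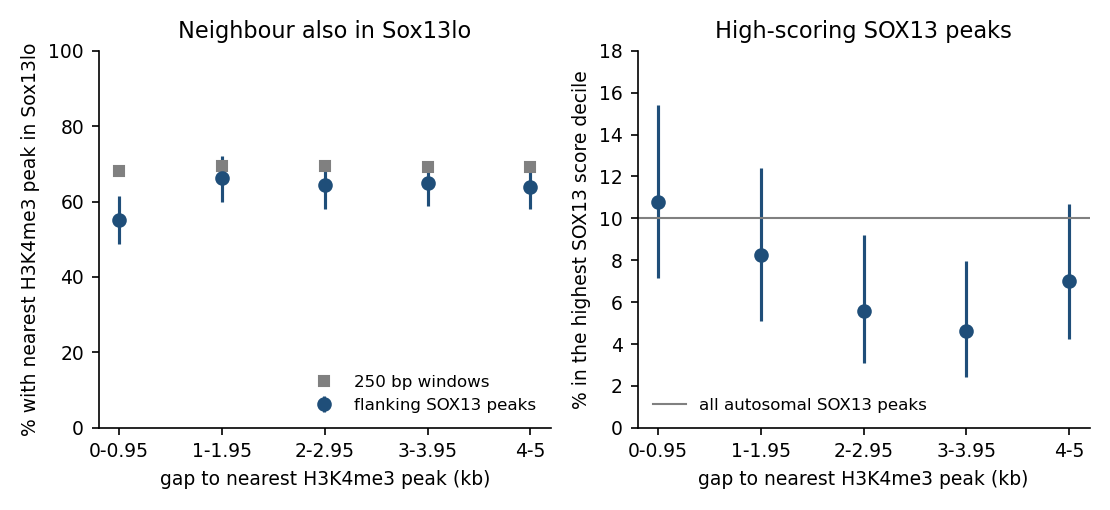
Flanking SOX13 peaks by gap to the nearest Sox13hi H3K4me3 peak. Left, percentage whose neighbour overlaps a Sox13lo H3K4me3 peak (blue) and the value for 250 bp windows (grey). Right, percentage in the highest SOX13 score decile, with a line at the 10% of all autosomal SOX13 peaks. Bars are exact binomial 95% intervals. On the left the step below 1 kb is at 55.2% against 68.2% for windows.

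Around the SOX13 site itself, 846 members had a Sox13lo H3K4me3 peak within 5 kb, or 66.9% (64.2 to 69.5%), against 71.8% of windows that met the rule and 9.52% of all SOX13 peaks on no histone peak. Of the 1265 members, 786 had a matched neighbour and a Sox13lo peak within 5 kb, and 11 a matched neighbour whose Sox13lo peak ended farther off. In 60 cases the neighbour was unmatched, but another Sox13lo peak lay within 5 kb. The remaining 408 members (32.3%, 29.7 to 34.9%) had H3K4me3 nearby in Sox13hi only. Their neighbours were narrow and low-scoring, with a median width of 350 bp and a median score of 9.75, against 1000 bp and 60.75 for the 786.

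SOX13 peaks whose neighbour was found only in Sox13hi scored slightly higher. Their median was 8.0 (interquartile range 6.75 to 10.3, 468 peaks) against 7.5 (6.5 to 9.0, 797 peaks) where the neighbour was also in Sox13lo. The highest decile held 9.83% (7.29 to 12.9%) of the former and 5.65% (4.15 to 7.48%) of the latter, a difference of -4.18 points for matched minus unmatched neighbours (-7.59 to -1.05). This difference was not recomputed without the 12 members at chromosome starts, of which 9 were in the highest decile.

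The 5 highest-scoring members with no Sox13lo H3K4me3 at the neighbour or within 5 kb include the first and second of the whole set. The others were at chr3:55176001-55176499 (score 32.0), chr17:3010301-3010599 (27.5) and chr7:71223701-71223999 (26.0). The chromosome 3 site stood alone, 4000 bp from a 450 bp H3K4me3 peak and 259150 bp from the nearest Sox13lo H3K4me3 peak. At the chromosome 7 site the nearest Sox13lo peak was 29750 bp away, and its Sox13hi neighbour was 150 bp wide and held a SOX13 peak of its own. None of these 5 neighbours ranked above the fifth decile of H3K4me3 score.

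Where the neighbour was found in both populations, its edge was compared. On the side facing the SOX13 peak, H3K4me3 reached further in Sox13hi at 354 of 797 neighbours (44.4%, 40.9 to 47.9%) and further in Sox13lo at 262 (32.9%, 29.6 to 36.3%). The median shift of the edge was 0 bp. On the other side of the same peaks the numbers were 336 (42.2%, 38.7 to 45.7%) and 277 (34.8%, 31.4 to 38.2%). Over both sides of all 13837 matched H3K4me3 peaks the shares were 41.3 and 35.3%. The intervals of the side next to SOX13 and the opposite side overlap. Both sides belong to the same peaks, and these separate intervals do not use that pairing, so they do not measure the difference between sides. The rule limits how far an edge can reach on the facing side, since the SOX13 peak may not be overlapped in either list.

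H3K4me3 flanked some members on both sides. This was the case for 90 members, or 7.11% (5.76 to 8.67%), against 4.84% of windows meeting the rule. The highest-scoring of them was again the site at chr17:3019551-3020499, with gaps of 1950 and 2600 bp. The next were at chr7:71223701-71223999 (score 26.0, gaps of 450 and 750 bp), chr7:52155251-52155799 (17.75, 900 and 3350 bp), chr15:103005401-103005949 (16.5, 4250 and 4450 bp) and chr11:59017901-59018299 (16.25, 1300 and 3200 bp). Of these, the second chromosome 7 site and the chromosome 11 site had a neighbour that was also in Sox13lo.

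Most H3K4me3 peaks with a flanking SOX13 peak had 1. The 1265 members had 1215 different nearest neighbours, 6.10% (5.77 to 6.44%) of the Sox13hi H3K4me3 list, of which 1166 had 1 member, 48 had 2 and 1 had 3. The peak with 3 was at chr8:108460751-108462349, with an H3K4me3 score of 123.75 in the ninth decile. Its SOX13 peaks touched it on one side and lay 1100 and 3300 bp away on the other, with scores of 7.0, 8.25 and 18.25. Next by H3K4me3 score among those with 2 were chr2:30682851-30684099 (144.75), with SOX13 at 1550 bp on one side and 800 bp on the other, and chr10:79016751-79018299 (137.5), with SOX13 at 4000 and 5000 bp on opposite sides.

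Strong and broad H3K4me3 peaks were not flanked more often than others, and the broadest were flanked less often than the narrowest. The share of H3K4me3 peaks with a flanking SOX13 peak was 6.22% (5.20 to 7.37%) in the lowest decile by H3K4me3 score and 5.07% (4.15 to 6.12%) in the highest. By width it was 7.78% (6.64 to 9.04%) in the narrowest decile, with a median of 250 bp, and 5.32% (4.37 to 6.40%) in the broadest, with a median of 1850 bp. The highest-scoring H3K4me3 peak with a member was at chr7:25154701-25159049, 4350 bp wide with a score of 336, and its SOX13 peak lay 400 bp away with a score of 17.5. Those next in H3K4me3 score were at chr10:126602001-126604149 (304.5) and chr5:25003301-25006049 (296.25). Their SOX13 peaks scored 7.5 and 5.5, ranks 6677 and 11781. Across members, Spearman's rho between the SOX13 score and the score of the neighbour was -0.0483 (1265 peaks, a description).

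Some members had another SOX13 peak nearby. Of the members 240, or 18.97% (16.8 to 21.2%), had another SOX13 peak of any kind within 5 kb, against 8.10% (7.56 to 8.65%) of distant peaks and 10.4% (9.85 to 10.9%) of all autosomal SOX13 peaks. The rule places members close to H3K4me3, where such peaks lie, and distant peaks away from it. Another SOX13 peak that was itself on no histone peak lay within 5 kb of 107 members, or 8.46% (6.98 to 10.1%), and of 7.84% (7.32 to 8.39%) of distant peaks, and these intervals overlap. The neighbouring H3K4me3 peak itself held a SOX13 peak for 138 members, which is 10.9% (9.24 to 12.8%), against 9.35% for windows and 9.14% (8.74 to 9.55%) of all H3K4me3 peaks. The interval of the members includes the window value.

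H3K27me3 was also found near members more often than near distant peaks. A Sox13hi H3K27me3 peak lay within 5 kb of 17.8% (15.7 to 20.01%) of members and of 4.04% (3.66 to 4.45%) of distant peaks, with 5.6% over all SOX13 peaks on no histone peak. For Sox13lo H3K27me3 there were 175 members (13.8%, 11.98 to 15.9%), 1.35% (1.14 to 1.60%) of distant peaks and 2.77% over all. Windows that met the rule had the marks about as often as the members, at 18.5% and 14.3%. The members' intervals include these values.

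In all, 261 members (20.6%, 18.4 to 23.0%) had H3K27me3 of either population within 5 kb, 139 of them in both. For 170 of the 261 the neighbouring H3K4me3 peak held H3K27me3 itself, and for 136 the H3K27me3 peak was closer than the H3K4me3 peak. Few of these SOX13 peaks scored high: 11 were in the highest decile, or 4.21% (2.12 to 7.42%), against 7.97% (6.37 to 9.82%) of the 1004 members without H3K27me3 nearby. These intervals overlap, but no interval of the difference was computed, so the overlap does not settle whether the shares differ. The neighbour was also in Sox13lo for 71.6% (65.8 to 77.0%) of the 261, against 60.8% (57.7 to 63.8%) of the 1004.

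The highest-scoring flanking peak with H3K27me3 nearby was at chr17:71662001-71662549 (score 43.25). It lay 950 bp from a 1300 bp H3K4me3 peak and 1350 and 1750 bp from H3K27me3 of Sox13hi and Sox13lo. The next were at chr19:36815601-36816149 (30.75) and chr2:168422601-168423049 (26.25). Both had H3K27me3 of the 2 populations within 5 kb, and all 3 had a neighbour that was also in Sox13lo.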

How the data were processed

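The 5 deposited peak lists give a position and a score for each peak. The score is the authors' value and was rounded to the nearest 0.25, from which it differs only in trailing digits. What it measures, and which aligner, caller, threshold and control were used, is not given in the sources used here. Peaks were called per library, as there is 1 list for each, with mm9 as the build per the submitters' processing notes. Per the labels' protocols, a histone ChIP used 0.25 times as many cells as the SOX13 ChIP, and libraries had 17 amplification cycles. Score values were compared only within a list, as medians, quartiles, deciles and ranks. Between lists only ranks were related, in the correlation of the SOX13 score with the score of the neighbour.

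Peaks start and end on a 50 bp grid, so the last base was counted in widths and gaps. Printed starts count from 1, and ends are those of the lists. Overlap meant at least 1 bp. Membership was computed in Python 3.11.15 (NumPy 2.4.6, pandas 2.3.3, SciPy 1.17.1, figures with matplotlib 3.10.9) and gave the same 1265 peaks in number as bedtools 2.31.1. The code was tested on simulated data with 400 peaks placed at known gaps. Shifted peaks wrapped within the stretch from the first to the last peak of any list. Windows covered that stretch, and sequence to which reads cannot be mapped was not removed. Deciles break ties by position. Differences carry a Newcombe-type interval. With 1 library per group no p-value was computed.

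Sites were named by a fixed rule: the 5 highest-scoring members, the 5 highest with H3K4me3 on both sides, the 5 highest with no Sox13lo H3K4me3 at the neighbour or within 5 kb, the 3 H3K4me3 peaks with the most members, the 3 highest members near H3K27me3, and the 3 members with the highest-scoring neighbours. The members and lists were chosen with earlier results of these data known. The alternatives are listed in the closing section, where those added after seeing the data are named. Genes and sequence at the peaks were not analysed here, because the reference tables at hand are on another build.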

Additional observations from a re-analysis of the deposited data

How the results depend on the processing

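Of 74 values from 13 alternative settings, 43 stayed within the interval of the value reported, or within 1.5 times a count. At a distance of 2 kb there were 494 flanking peaks (3.66% of SOX13 peaks), 1.21 times the shifts, with 48.8% below 1 kb, 3.81 points more in the top score decile than distant peaks, and 2.44% of H3K4me3 peaks flanked. At 10 kb the numbers were 2334 and 17.3%, with 10.3% below 1 kb, 66.8% of neighbours in Sox13lo, 38.0% of SOX13 peaks with Sox13lo H3K4me3 within 5 kb and 10.8% of H3K4me3 peaks flanked. In the top 50% of every list there were 363 (5.38%), the difference in the top decile turned to -1.11 points, 82.6% of neighbours and 84.0% of sites had Sox13lo H3K4me3, and 3.47% of H3K4me3 peaks were flanked. Requiring 50% of the shorter peak for an overlap gave 9.92% of SOX13 peaks as flanking, with 22.9% below 1 kb. Equal H3K4me3 list lengths gave 8.63%, 68.9% of neighbours in Sox13lo and 72.7% with Sox13lo H3K4me3 within 5 kb. With the neighbour taken from the Sox13lo list 7.87% were flanking and 5.72% of H3K4me3 peaks flanked, and without members near H3K27me3 7.44% and 4.82%. From the SOX13 peak's centre, 16.4% lay below 1 kb. The ratio to shifts turned to 0.906 with shifts of 50 kb to 1 Mb. Chosen after seeing the data, shifting only SOX13 peaks on no histone peak gave 1.58 (any distance) and 1.13 (50 kb to 1 Mb), and leaving out chromosome starts moved none of the 8 values beyond its interval. Shorter distances and cut lists hold fewer peaks by construction. Limiting the shifted count to peaks on no histone peak lowers it by construction. The cause of the turn between the shifts and of the other changes was not tested. Merging SOX13 peaks within 1 kb moved no value. No paired analysis of libraries was possible because there is a single library in every group, which also means that no replicate could be left out. The unknown depth limits what a missing Sox13lo peak can show.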
